A study of Mus musculus with 10 samples.

Results

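DNA replication and mitosis genes encode the machinery that copies the genome and then separates the copies, and 38 of them were followed in osteoblastic lineage cells (OBCs), which form bone or give rise to cells that do. The 38 genes were chosen by symbol for their known function, 11 for DNA replication and 27 for mitosis, out of 19938 genes measured. Earlier results of these data were known when they were chosen. For each gene the brightest probe set annotated with its symbol alone was used, and all 38 were found. OBCs came from 5 control mice and 5 BA mice (Scl-tTA::TRE-BCR/ABL), with 1 mouse on each array. In BA mice the BCR/ABL oncogene is switched on by a transactivator under the Scl promoter once doxycycline is removed, and a myeloproliferative neoplasm, an overgrowth of myeloid blood cells, develops. Both groups were C57BL/6 mice that lost doxycycline at 5 weeks of age, and bones were taken 5 to 6 weeks later. The genotype of the controls is given only as control. RNA from 500 to 2300 sorted cells per sample was amplified and hybridised to Affymetrix mouse Gene ST arrays.

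A dividing cell loads the MCM helicase onto its origins, makes deoxynucleotides through ribonucleotide reductase and thymidylate synthase, and copies DNA with the help of the sliding clamp PCNA. It then condenses its chromosomes, attaches them through kinetochores to a spindle built by kinesin motors, and divides under the control of cyclin-dependent, Aurora and Polo-like kinases. Replication genes are typically driven by E2F factors around the start of DNA synthesis. Mitotic genes are held silent in resting cells and are transcribed late in the cycle through CHR elements and CCAAT boxes. How much of these transcripts came from cycling cells was not measured in the sorted populations.

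The promoter sequences of the members, which do not depend on the arrays, show this division in part, by CHR words more than by E2F words. RefSeq promoters (GRCm38.p6), from 250 bases before to 50 after a transcript's start, were listed for 32 members, 22 mitotic and 10 replication. A CHR word (TTTGAA or TTCGAA, either strand) was found in 18 of the 22 mitotic members (81.8%) and in 2 of the 10 replication members (20.0%). Of the 15614 genes tested on the arrays that had a listed promoter, 19.0% held one. An E2F word (TTTNNCGC with each N being C or G, either strand) was found in 4 of the 10 replication members (40.0%) and 1 of the 22 mitotic ones (4.55%). Among those 15614 genes 3.48% held one. CCAAT on either strand was common to both, in 17 of 22 and 8 of 10, against 41.7% of those genes. Each gene counts as holding a word if any of its listed promoters does. A match describes the letters only and does not show that a factor binds. The stretches shown here are 120 bases that end at the outermost annotated start, 5′ to 3′ on the gene's strand, with these words in capitals, and they set 3 mitotic promoters beside 2 replication promoters.
Top2a: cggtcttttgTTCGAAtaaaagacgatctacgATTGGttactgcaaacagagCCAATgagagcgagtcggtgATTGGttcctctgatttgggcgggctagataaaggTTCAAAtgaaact
Cdc20: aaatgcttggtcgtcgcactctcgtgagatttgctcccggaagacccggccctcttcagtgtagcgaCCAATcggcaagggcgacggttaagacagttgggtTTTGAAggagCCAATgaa
Kif11: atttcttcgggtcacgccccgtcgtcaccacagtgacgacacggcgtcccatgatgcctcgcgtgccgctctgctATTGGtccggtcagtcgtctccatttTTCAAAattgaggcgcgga
Mcm6: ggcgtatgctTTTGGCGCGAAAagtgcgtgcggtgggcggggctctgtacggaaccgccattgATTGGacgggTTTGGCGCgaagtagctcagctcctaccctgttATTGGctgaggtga
Rrm2: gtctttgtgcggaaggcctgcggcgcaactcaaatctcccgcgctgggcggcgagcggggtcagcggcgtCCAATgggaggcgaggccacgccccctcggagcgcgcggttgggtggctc

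These stretches lie at chr11:99024200-99024319 (minus strand) for Top2a, chr4:118437344-118437463 (minus) for Cdc20, chr19:37376262-37376381 (plus) for Kif11, chr1:128359706-128359825 (minus) for Mcm6 and chr12:24708134-24708253 (plus) for Rrm2. TTCAAA and ATTGG are TTTGAA and CCAAT read on the other strand. In Mcm6, E2F words of both strands overlap and are capitalised as 1 run, while the Rrm2 stretch holds no E2F word. In Cenpf and Bub1, whose arrays are described next, the CHR words start at base 3 and base 15 after the listed start. Among 39 other mitotic genes with a promoter 28 held a CHR word (71.8%), and among 32 other replication genes 7 did (21.9%), while E2F words were found in 4 and 12 of these.

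**Figure D1:**
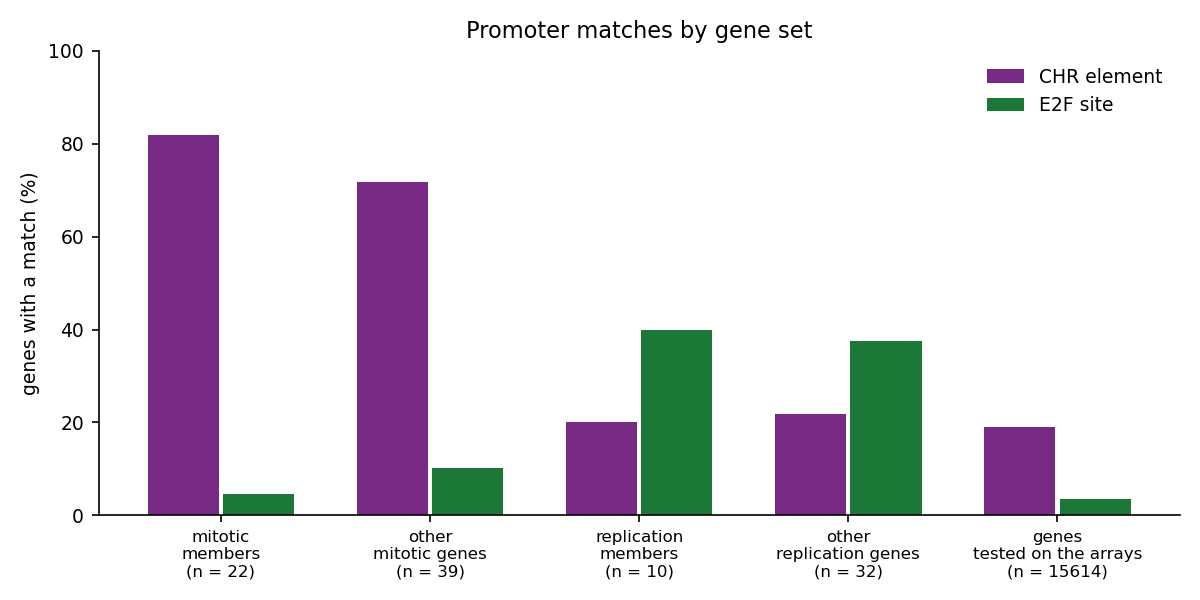
Percentage of genes with a CHR element (purple) or an E2F site (green) in a listed promoter, for the 2 sets of members, the other mitotic and replication genes and all genes tested on the arrays, with the number of genes that have a promoter under each pair of bars. CHR elements were matched in 81.8% of mitotic and 20.0% of replication members, and E2F sites in 4.55% and 40.0%.

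On the arrays, most mitotic members had a higher mean in BA than in control cells, while replication members were split, and no member of either set passed the threshold. Of the 27 mitotic members 23 were higher and 4 lower, with a median difference (BA minus control, log2 scale) of 0.20. Over all 19938 genes the median was -0.06, with 37.9% higher and 62.1% lower. The 48 other mitotic genes measured were split almost evenly, 26 higher and 22 lower, with a median of 0.06. The lean of the mitotic members was thus not shared by mitotic genes at large. Of the 11 replication members 5 were higher and 6 lower, with a median of -0.03. By limma with Benjamini-Hochberg adjustment over all genes, 0 of the 38 members rose (background 0.00502% of genes) and 0 fell (background 0%), the lowest adjusted p among them being 0.384. The single call in the whole table was Snord38a, of a small nucleolar RNA, which was named with its values in view. At an unadjusted p under 0.05, 3 mitotic members were higher and 0 lower, and 0 replication members differed, against 4.13% of all genes higher, 5.27% lower and 9.4% in either direction. The 3 genes make up 11.1% of the mitotic set and 7.89% of all members. The latter lay near the 9.4% of either direction and above the 4.13% of the higher direction, and the excess was not tested. Levels are bulk averages, in which fewer cells of a type and less RNA per cell cannot be told apart.

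The background itself depended on brightness. Among the genes with a mean level above that of the median gene, 49.8% were higher in BA cells and the median difference was 0. Of the members among these brighter genes, 16 of 18 mitotic ones were higher (median 0.32) and 5 of 9 replication ones (median 0.01). With each array centred on its median, the counts became 23 of 27 mitotic and 6 of 11 replication members higher, and with quantile normalization 22 and 2, so the direction of the replication set depended on the scaling.

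**Figure D2:**
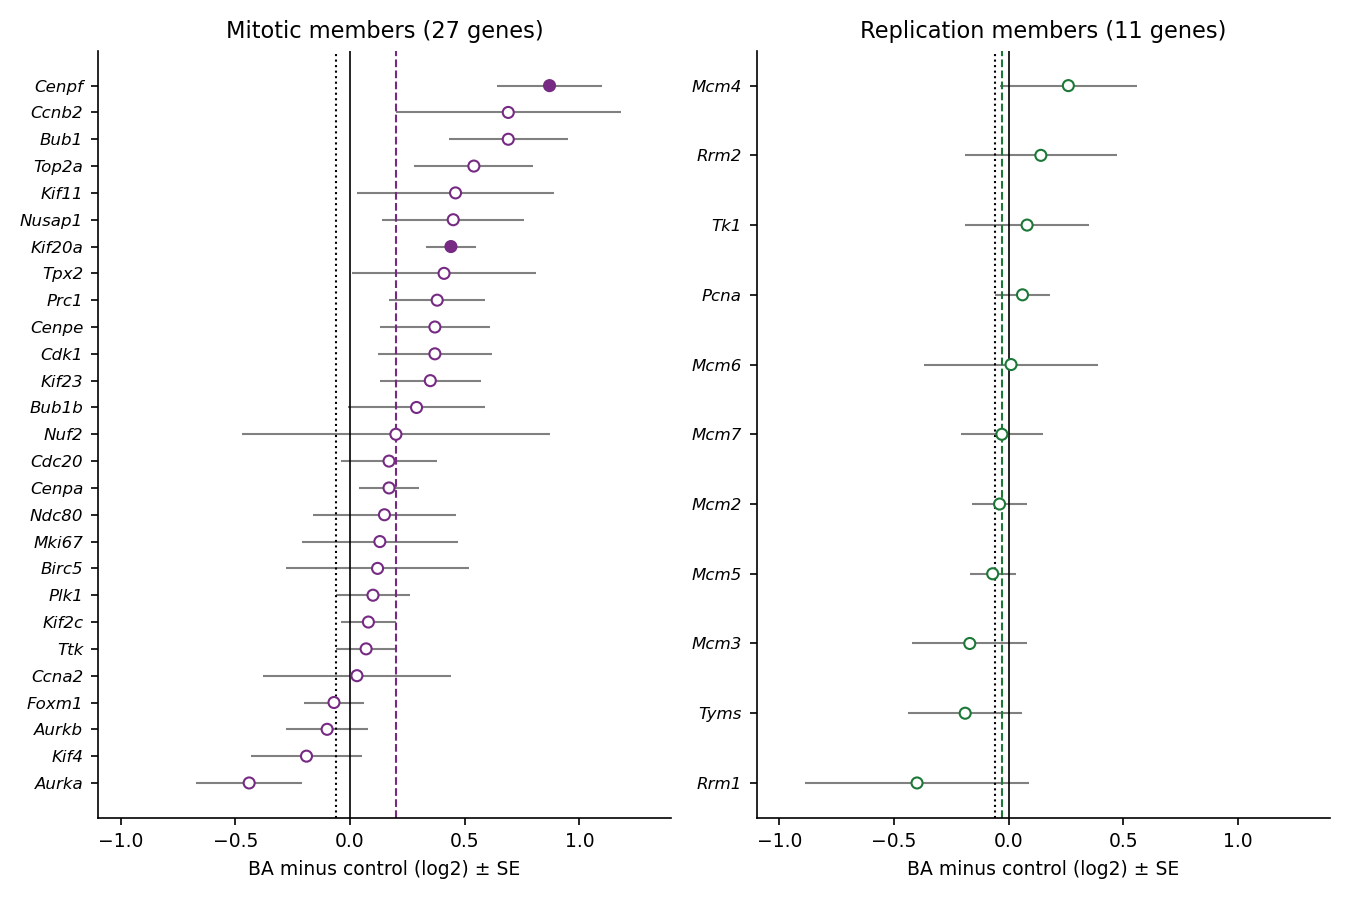
Difference between BA and control means (log2) with its standard error for the 27 mitotic and 11 replication members, sorted by size, with filled points where all 5 BA arrays lay above all 5 control arrays. The coloured dashed line is the set's median (0.20 and -0.03) and the dotted line the median of all genes (-0.06).

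The kinetochore and spindle checkpoint genes all had higher means in BA cells, 7 of 7, with a median difference of 0.29. Cenpf encodes a large kinetochore protein that accumulates in late interphase and mitosis. Its levels were 5.95, 6.25, 5.85, 5.57 and 5.70 on control replicates 1 to 5 and 6.58, 6.33, 6.89, 7.50 and 6.37 on BA replicates 1 to 5. The groups did not overlap, though BA replicate 2 lay only just above control replicate 2. The difference was 0.87 ± 0.23 (SE), or 1.83-fold (limma, adjusted p = 0.384). Bub1, a kinase of the spindle checkpoint, stood at 4.54, 5.56, 4.92, 5.14 and 4.96 in control cells and at 5.68, 5.08, 5.35, 6.29 and 6.17 in BA cells. BA replicates 4 and 5 were the highest, BA replicate 1 lay just above the control range, and BA replicates 2 and 3 fell within the control range. Bub1 differed by 0.69 ± 0.26 (limma, adjusted p = 0.490), and its mean level lay below that of the median gene.

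Cenpe, the kinetochore motor that carries chromosomes to the spindle equator, was at 6.20, 6.19, 5.85, 5.88 and 5.61 in control and at 5.92, 6.08, 6.25, 7.26 and 6.06 in BA cells. Its difference of 0.37 ± 0.24 rested on BA replicate 4, without which it was 0.13. The other checkpoint and kinetochore genes overlapped broadly: the checkpoint protein gene Bub1b differed by 0.29 ± 0.30, the checkpoint kinase gene Ttk by 0.07 ± 0.13, and the microtubule-binding Ndc80 complex genes Ndc80 and Nuf2 by 0.15 ± 0.31 and 0.20 ± 0.67. Nuf2 had the largest residual SD of the members, 1.19, and lay between 4.45 and 7.71 within the control group.

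Spindle motors and microtubule-binding proteins were higher in 7 of 8 cases, with a median difference of 0.39. Kif20a, a kinesin needed for the central spindle and cytokinesis, was at 5.10, 5.14, 5.03, 5.10 and 5.14 on the control arrays and at 5.76, 5.43, 5.67, 5.64 and 5.22 on the BA arrays. The control values spanned 0.11 and the BA values 0.54, and the groups did not overlap. Its mean level lay below that of the median gene, where the processing can compress the spread. The difference was 0.44 ± 0.11, or 1.36-fold (limma, adjusted p = 0.384). With Cenpf it was 1 of 2 members whose groups were apart, both higher in BA cells, against 0.567% of all genes in that direction and 1.67% in either. Prc1, the microtubule bundler of the central spindle, was at 5.82, 6.11, 6.18, 6.28 and 5.86 in control and at 5.86, 6.87, 6.70, 6.71 and 6.00 in BA cells. BA replicates 2, 3 and 4 were above every control array and BA replicates 1 and 5 within the control range (difference 0.38 ± 0.21).

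Kif23, the motor of the centralspindlin complex, was at 6.11, 5.87, 5.74, 6.36 and 5.84 in control and at 6.05, 5.71, 6.89, 6.70 and 6.33 in BA cells. Its highest BA array, replicate 3, and its lowest, replicate 2, enclosed the whole control range. The difference of 0.35 ± 0.22 was 0.21 without the first of these and 0.51 without the second. The bipolar spindle motor gene Kif11 differed by 0.46 ± 0.43, the spindle-associated Nusap1 by 0.45 ± 0.31 and the spindle assembly factor Tpx2 by 0.41 ± 0.40. Kif2c, a microtubule-depolymerising kinesin, differed by 0.08 ± 0.12, and the chromokinesin gene Kif4 was the 1 member of its group with a lower mean, by -0.19 ± 0.24.

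Cyclins, kinases and their regulators were less uniform, with 6 of 9 higher and a median of 0.10. Aurka, the Aurora kinase of centrosomes and spindle poles, went the other way from most members. It was at 6.31, 7.73, 6.55, 6.71 and 6.92 in control and at 6.47, 6.36, 6.49, 6.30 and 6.41 in BA cells. The BA arrays lay within 0.19 of each other and the control arrays spread over 1.42, with control replicate 2 at the top. The difference of -0.44 ± 0.23 (limma, adjusted p = 0.543) became -0.22 without that array. Ccnb2, a mitotic cyclin, differed by 0.69 ± 0.49, with control replicate 1 at 6.13 and the other 9 arrays between 8.03 and 9.64. Its partner kinase Cdk1 differed by 0.37 ± 0.25 and the anaphase activator gene Cdc20 by 0.17 ± 0.21. Differences under 0.15 in size were found for Birc5 (survivin, 0.12 ± 0.40), the Polo-like kinase gene Plk1 (0.10 ± 0.16), Ccna2 (0.03 ± 0.41), Foxm1, the transcription factor of mitotic genes (-0.07 ± 0.13), and Aurkb (-0.10 ± 0.18).

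Mki67 and Top2a are the usual markers of cycling cells. Mki67, the chromosome surface protein Ki-67, was at 7.85, 8.66, 7.24, 8.26 and 8.52 in control and at 7.79, 7.66, 7.93, 8.89 and 8.90 in BA cells. BA replicates 4 and 5 held the highest values and BA replicates 1 to 3 lay among the lower control arrays. The difference of 0.13 ± 0.34 (limma, adjusted p = 0.892) has no settled sign, being -0.01 with quantile normalization and -0.09 without control replicate 3. Without BA replicates 4 and 5 it was -0.31. That run was added after seeing the data and leaves out the highest arrays, so a lower difference was bound to follow. Top2a, the topoisomerase that untangles chromosomes, was at 8.34, 8.30, 7.24, 7.89 and 8.36 in control and at 8.68, 7.99, 8.32, 8.74 and 9.10 in BA cells. BA replicates 1, 4 and 5 exceeded all control arrays (difference 0.54 ± 0.26, limma, adjusted p = 0.534). It was 0.34 without control replicate 3, the lowest array. A second, much dimmer Top2a probe set gave the opposite sign, with 3.85, 3.57, 3.94, 5.84 and 3.64 in control and 2.17, 3.50, 3.24, 3.77 and 3.31 in BA cells. It differed by -0.97 ± 0.45, and the mean of both probe sets by -0.21. The centromeric histone gene Cenpa differed by 0.17 ± 0.13.

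**Figure D3:**
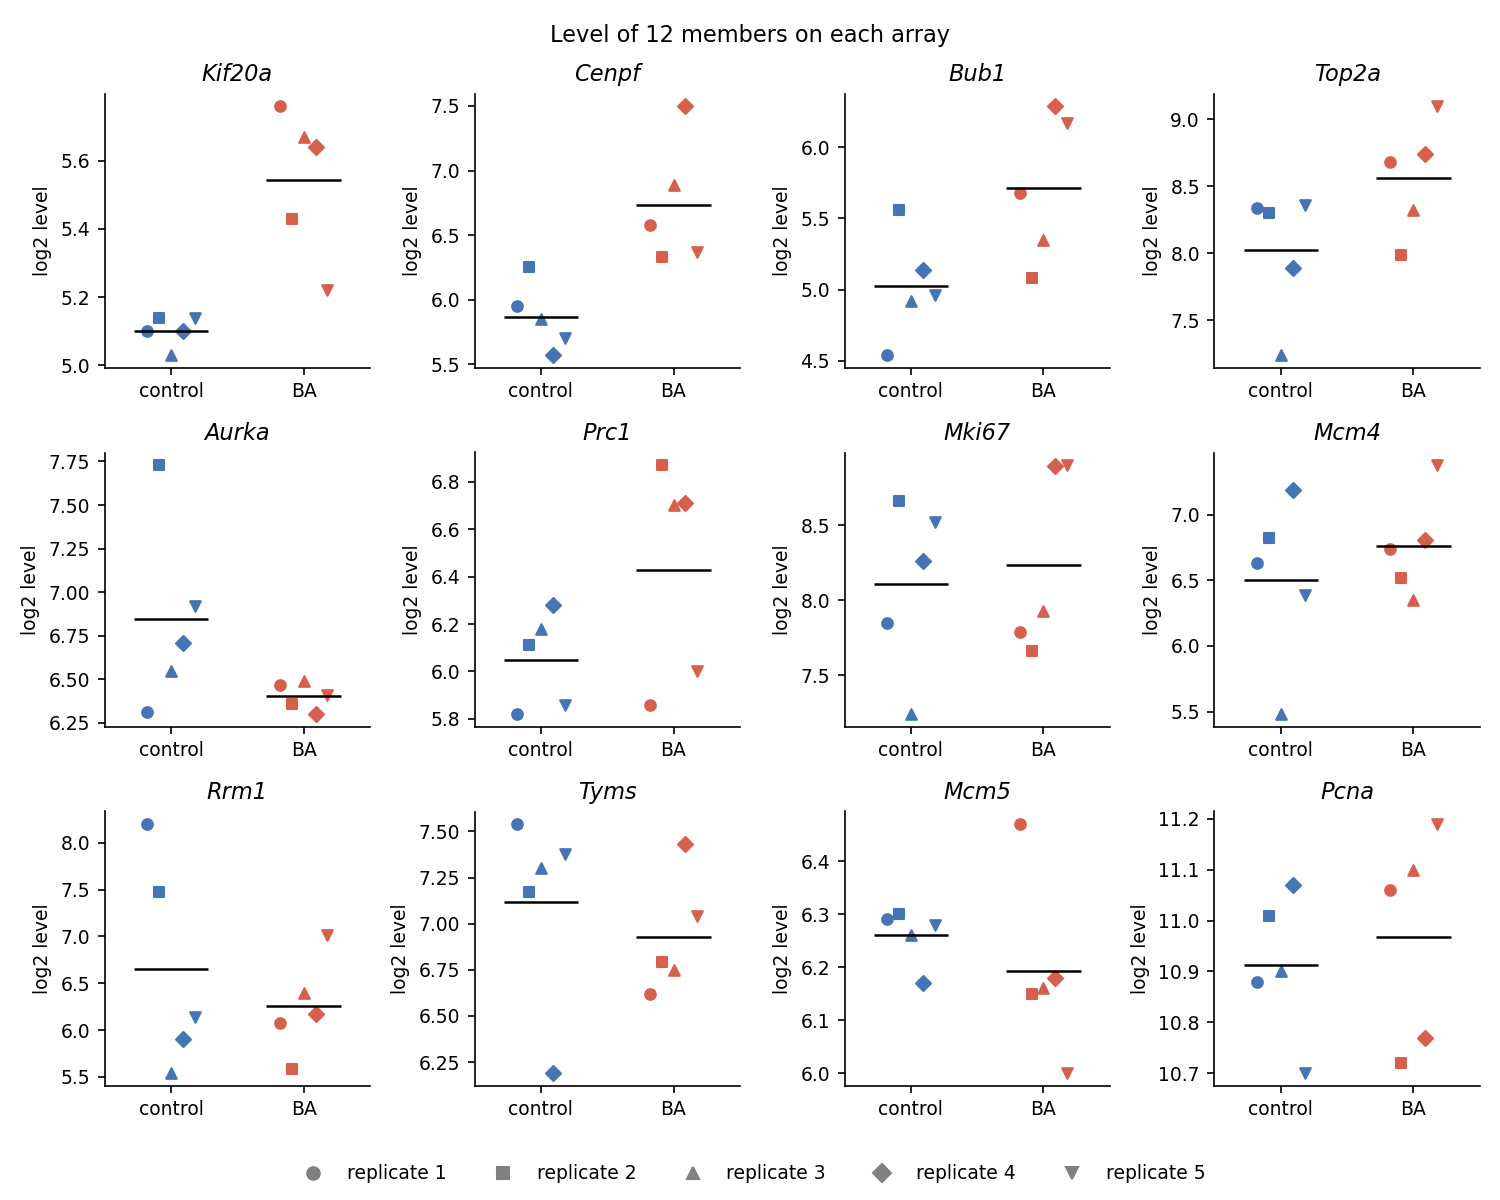
Log2 level of 12 members on each array, with 1 symbol shape per replicate number and a line at each group mean; vertical axes differ between genes and do not start at 0. Kif20a and Cenpf show no overlap between groups, Aurka has a narrow BA group below a broad control group, and the replication genes Mcm4, Rrm1, Tyms, Mcm5 and Pcna overlap between groups.

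Among replication members, the 6 subunits of the MCM helicase, which unwinds DNA at the fork, had differences between -0.17 and 0.26 with a median of -0.04. Mcm4 was at 6.63, 6.82, 5.48, 7.19 and 6.39 in control and at 6.74, 6.52, 6.35, 6.81 and 7.38 in BA cells. Its difference of 0.26 ± 0.30 was 0 without control replicate 3, the lowest array. Mcm5 was at 6.29, 6.30, 6.26, 6.17 and 6.28 in control and at 6.47, 6.15, 6.16, 6.18 and 6.00 in BA cells. It had the smallest spread between arrays of any member (residual SD 0.13), and its difference was -0.07 ± 0.10. The remaining subunit genes differed by -0.17 ± 0.25 (Mcm3), -0.04 ± 0.12 (Mcm2), -0.03 ± 0.18 (Mcm7) and 0.01 ± 0.38 (Mcm6).

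Of the genes that supply nucleotides, Rrm1, the large subunit of ribonucleotide reductase, was at 8.20, 7.47, 5.54, 5.90 and 6.14 in control and at 6.08, 5.59, 6.40, 6.17 and 7.02 in BA cells. Control replicates 1 and 2 stood above all other arrays. The difference of -0.40 ± 0.49 (limma, adjusted p = 0.761) was -0.01 without control replicate 1. Rrm2, the small subunit, differed by 0.14 ± 0.33. Tyms, thymidylate synthase, was at 7.54, 7.17, 7.30, 6.19 and 7.38 in control and at 6.62, 6.79, 6.75, 7.43 and 7.04 in BA cells. Control replicate 4 was the lowest array, and the difference of -0.19 ± 0.25 became -0.42 without it and -0.08 without control replicate 1, the highest. Thymidine kinase 1 (Tk1) differed by 0.08 ± 0.27 on its brighter probe set and by 0.10 ± 0.16 on the other, although these 2 probe sets lay up to 1.48 apart on a single array.

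Pcna, the sliding clamp, was at 10.88, 11.01, 10.90, 11.07 and 10.70 in control and at 11.06, 10.72, 11.10, 10.77 and 11.19 in BA cells. It lay within 0.49 over all 10 arrays, and the difference of 0.06 ± 0.12 was -0.02 with quantile normalization. Its 2 probe sets differed by at most 0.01 on any array.

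Averaged per array, the mitotic members of control and BA mice overlapped. Each gene was set against its own mean over the 10 arrays and these deviations were averaged over the set. Mitotic deviations were -0.28, 0.20, -0.41, 0.06 and -0.19 on control replicates 1 to 5 and 0.02, -0.16, 0.09, 0.37 and 0.31 on BA replicates 1 to 5. BA replicates 4 and 5 were the highest arrays and control replicate 3 the lowest, while control replicate 2 exceeded BA replicates 1 to 3. Replication deviations were 0.19, 0.15, -0.23, -0.04 and 0.02 in control and -0.07, -0.19, -0.11, 0.06 and 0.22 in BA cells. Here BA replicate 5 and control replicate 1 were highest, and the group means were 0.02 and -0.02. The gap between the sets (mitotic minus replication) was -0.46, 0.06, -0.18, 0.10 and -0.22 in control and 0.09, 0.02, 0.20, 0.30 and 0.09 in BA cells. It was above 0 on all BA arrays, yet 2 control arrays lay within the BA range.

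Single arrays carried many of the extremes. BA replicate 4 held the highest value for 9 of the 27 mitotic members and BA replicate 5 for 8, whereas control replicate 3 held the lowest for 8. For replication members BA replicates 4 and 5 held the highest value in 1 and 2 of 11 cases. The X-inactivation transcript Xist stood at 9.81 to 10.7 on control replicates 4 and 5 and BA replicates 2, 4 and 5, and at 3.85 to 5.08 on the other arrays; the labels used here do not give the sex of the mice. With Xist as a covariate the median mitotic difference was 0.19. Without a covariate it was 0.23 without BA replicate 4, 0.15 without BA replicate 5 and 0.14 without both (added after seeing the data). It was 0.13 without control replicate 3, 0.32 without control replicate 2 and 0.35 without control replicate 4.

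**Figure D4:**
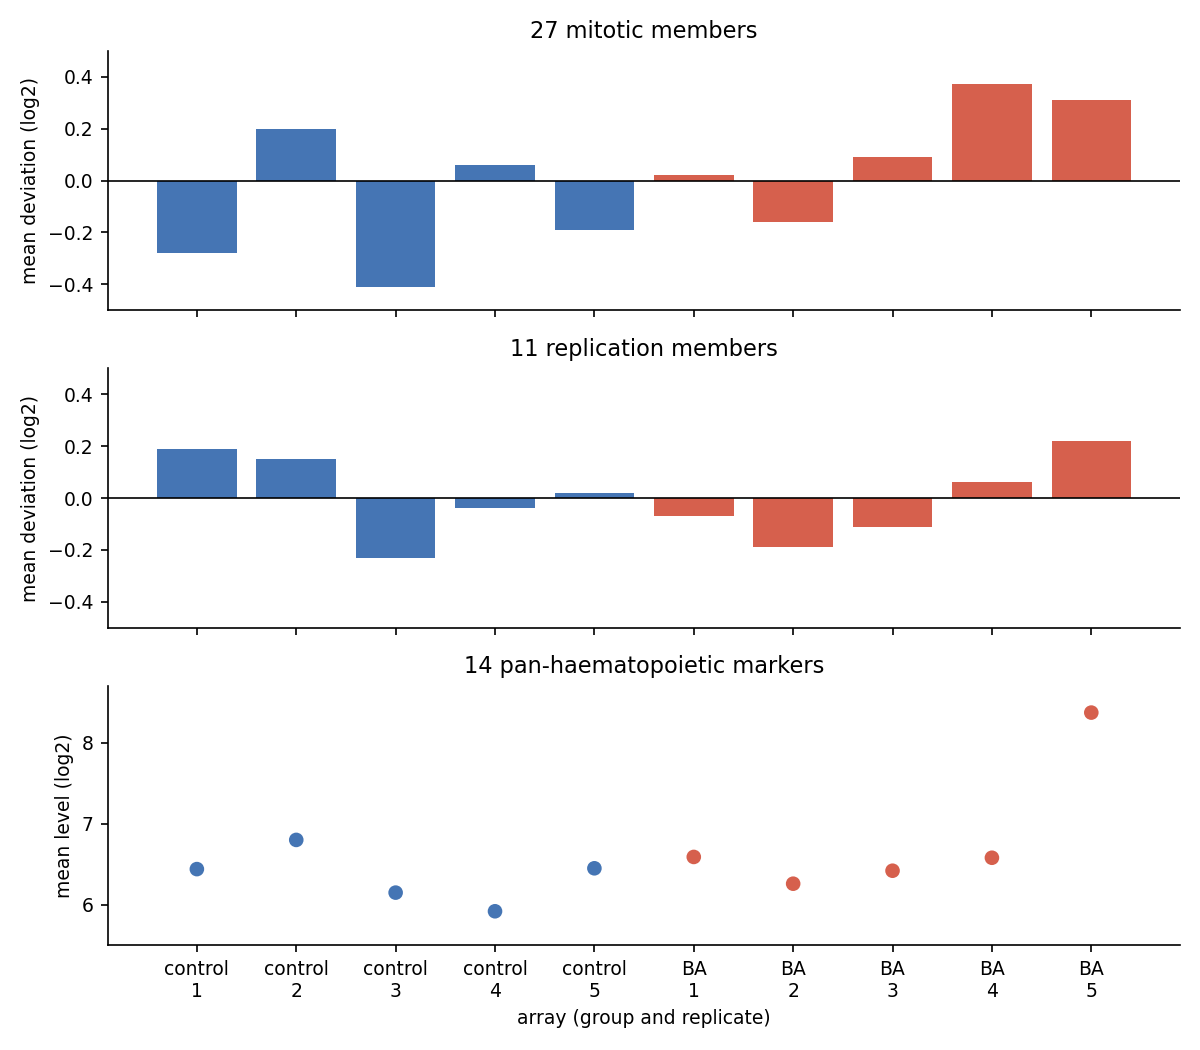
Mean deviation (log2) of the 27 mitotic and 11 replication members from each gene's own mean, by array, above the mean log2 level of 14 pan-haematopoietic markers, with control arrays in blue and BA arrays in red. BA replicates 4 and 5 have the highest mitotic values (0.37 and 0.31), and only BA replicate 5 has a raised marker level (8.37).

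Markers of other cells were set beside these values. Skeletal genes were present and the osteoblast ones differed among themselves: Ibsp had group means of 12.71 ± 0.08 and 12.70 ± 0.09, the bone collagen gene Col1a1 of 10.65 ± 0.33 and 9.40 ± 0.78, and the cartilage regulator gene Sox9 of 11.26 ± 0.20 and 11.45 ± 0.07 (control and BA, SD, n = 5 each). The mean of 14 pan-haematopoietic markers lay between 5.92 and 6.80 on control arrays and between 6.26 and 6.59 on BA replicates 1 to 4, but at 8.37 on BA replicate 5, where the CD45 gene Ptprc stood at 9.29 against 5.54 to 5.90 elsewhere. On that array the mitotic deviation was 0.31 and the replication deviation 0.22, the highest of the latter. BA replicate 4, with the highest mitotic deviation, had these markers at 6.58, within the control range. Of the 14 markers 11 were higher in BA cells and 1 of them had an unadjusted p under 0.05 (7.14%, against 4.13% of all genes higher). With their mean as a covariate the median mitotic difference was 0.15 (20 of 27 higher), and the differences were 0.51 for Bub1, 0.91 for Cenpf, 0.52 for Kif20a, 0.31 for Top2a and -0.77 for Rrm1. Bub1 then no longer had an unadjusted p under 0.05, while Prc1 came under it with a difference of 0.54. The count of such members stayed at 3, beside 6.68% of all genes, and 2 of the 11 replication members were higher. This covariate follows mainly BA replicate 5, so it cannot separate the marker level from that array. Without BA replicate 5 and without a covariate the median mitotic difference was also 0.15.

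Marker lists of single cell types of marrow and bone gave the following values. Whether these cells were dividing was not measured. Erythroid markers were lower in 7 of 7 measured cases (median -0.39), with array means of 6.45 to 7.03 in control and 6.04 to 6.27 in BA cells. Granulocyte progenitor markers were higher in 3 of 8 (median -0.08; 5.85 to 7.67 and 5.85 to 6.89), and B-cell precursor markers in 1 of 9 (median -0.13; 6.05 to 6.64 and 5.90 to 6.15). Macrophage markers were higher in 7 of 10 (median 0.18; 5.41 to 5.90 and 5.44 to 6.36), mast cell and basophil markers in 4 of 8 (median 0.17; 4.99 to 5.56 and 4.85 to 5.94), and endothelial markers in 3 of 8 (median -0.09; 5.35 to 5.79 and 5.29 to 5.49). Among skeletal cells, osteoblast markers were higher in 2 of 7 (median -0.42; 8.97 to 9.56 and 8.48 to 9.16), chondrocyte markers in 9 of 10 (median 0.14; 10.16 to 10.90 and 10.52 to 10.97), hypertrophic chondrocyte markers in 5 of 6 (median 0.17; 8.88 to 9.67 and 9.67 to 10.21) and stromal progenitor markers in 0 of 8 (median -1.08; 7.55 to 9.66 and 6.54 to 8.14). At an unadjusted p under 0.05, 4 of 7 erythroid, 4 of 7 osteoblast and 4 of 8 stromal progenitor markers were lower, and 3 mast cell and basophil markers were higher and 1 lower. There was 1 lower B-cell precursor marker and 1 higher hypertrophic chondrocyte marker, and 0 in the granulocyte progenitor, macrophage, endothelial and chondrocyte lists. Over all genes 5.27% were lower and 4.13% higher at that p. The part of these cell types in the mitotic values was not tested. The pan-haematopoietic covariate does not decide it, because it follows mainly BA replicate 5.

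Of 48 other mitotic genes measured 26 were higher and 22 lower, with a median of 0.06. At an unadjusted p under 0.05, 7 of them were higher and 0 lower (14.6%), against 4.13% of all genes higher. The smallest p belonged to Spc25, the partner of Nuf2 and Ndc80 in their complex (0.66 ± 0.19), the microtubule-associated Ckap2 (0.71 ± 0.22) and the spindle pole gene Aspm (0.77 ± 0.24), and 0 passed over all genes (limma, lowest adjusted p = 0.452). Aspm and Ckap2 were highest on BA replicate 4 and Spc25 on BA replicate 5, the arrays with the highest values of the mitotic members.

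Of 40 other replication genes 23 were higher and 17 lower, with a median of 0.08, and at an unadjusted p under 0.05 there were 2 higher and 3 lower (12.5%, background 9.4%). Subunits of the clamp loader RFC, which places PCNA on DNA, lay on both sides. Rfc4 was at 7.19, 6.09, 6.22, 5.82 and 6.16 in control and at 5.25, 5.42, 5.66, 5.33 and 5.19 in BA cells. All BA arrays were below all control arrays, as for 1.1% of genes, with a difference of -0.93 ± 0.23 (limma, adjusted p = 0.384). Rfc3 was at 4.78, 6.17, 4.62, 4.78 and 5.23 in control and at 5.62, 7.09, 6.10, 6.66 and 6.61 in BA cells. Its groups overlapped through control replicate 2, and it differed by 1.30 ± 0.34 (limma, adjusted p = 0.384). Rfc1 differed by 1.08 ± 0.44, Rfc2 by 0.15 ± 0.38 and Rfc5 by 0.07 ± 0.22, and the origin licensing gene Cdc6 by -0.45 ± 0.17. Rfc1, Rfc2 and Rfc5 were named after their values were seen, to complete the clamp loader.

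Genes that act before DNA synthesis begins did not pass either. Of 16 cyclins, kinases and inhibitors of the first gap phase 5 were higher and 11 lower (median -0.05), with 0 at an unadjusted p under 0.05. The D-type cyclin genes Ccnd3 and Ccnd2 differed by -0.36 ± 0.16 and -0.82 ± 0.40, and Myc, a driver of growth, by 0.26 ± 0.13. Of 18 pocket protein, E2F and DREAM complex genes 10 were higher (median 0.04), with 2 higher and 1 lower at an unadjusted p under 0.05 (16.7%, background 9.4%). These were Lin54, the DREAM subunit that recognises CHR elements (0.48 ± 0.16), the repressor gene E2f8 (0.70 ± 0.31) and the activator gene E2f3 (-0.32 ± 0.13), each with an adjusted p between 0.482 and 0.526 (limma). Mitotic members with a CHR word in their promoter were higher in 16 of 18 cases (median 0.23) and those without in 4 of 4 (median 0.29).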

How the data were processed

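OBCs from 5 control and 5 BA mice were measured on 1 array each. The authors deposited log2 values for 35557 probe sets on 10 arrays, made with GCRMA per the submitters' processing notes (version not given in the sources used here). That the scale is log2 was taken from the spread of the values, 1.21 to 13.7. GCRMA draws dim probe sets towards a floor, which compresses low differences. Without detection calls, signal over background could not be judged; precision is limited by the number of arrays. Arrays correlated at 0.889 to 0.957 across genes.

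Of the probe sets 21789 had 1 symbol in the platform annotation, 1621 several and 12147 none. The probe set with the highest mean represented each of 19938 genes, 999 of them with more than 1. BA and control were compared with limma 3.58.1 (lmFit and eBayes, two-sided, no covariate) in R 4.3.3, with Benjamini-Hochberg adjustment over all genes at 0.05. In 10 simulations of this comparison over 19938 genes, 64.5% of genes changed by 1 and 90.2% of genes changed by 2 on the log2 scale were called. These shares are over all genes, with a median residual SD of 0.24; that of the mitotic members was 0.42 and of the replication members 0.44, and no member differed by 1, so the shares overstate what could be called among them.

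The 18 gene lists (271 entries, 259 measured), which include the 2 sets of members, were chosen with earlier results of these data known. Given on every array are the 4 replication and 8 mitotic members with the smallest p, Mki67, Pcna and any member whose probe sets differ in sign; of other cell cycle lists up to 3 genes with the smallest p are named, and Ibsp, Col1a1, Sox9, Ptprc and Xist were named outside this rule. Of the lists, the sex-linked genes served only for the Xist covariate: 4 were measured, 2 higher and 2 lower. Alternatives were a replicate block, quantile normalization, median centring, only genes above the median level, trend and robust settings, array weights, other uses of probe sets, a threshold of 0.10, 2 covariates and leaving out each array. Leaving out BA replicates 4 and 5 together was added after seeing the data.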

Additional observations from a re-analysis of the deposited data

Results flagged for a closer look

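Single arrays stood apart from the other 4 of their group for 7 values of the members, by a gap beyond Dixon's critical value for 5 samples, among 80 groups of values examined; chance alone marks about 1 group in 20. In control cells Ccnb2 was at 6.13 on replicate 1 against 8.17 to 8.88 on the others, Rrm2 at 5.99 on replicate 2 against 7.07 to 7.41, Tyms at 6.19 on replicate 4 against 7.17 to 7.54, and Cdk1 at 6.96 on replicate 2 against 5.77 to 6.09. In BA cells Cenpe was at 7.26 and Kif2c at 5.25 on replicate 4, against 5.92 to 6.25 and 4.67 to 4.77, and Nuf2 was at 4.59 on replicate 2 against 5.85 to 6.30.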

How the results depend on the processing

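No member passed in any alternative run, the threshold of 0.10 included. Over the alternatives the median difference ran from 0.13 to 0.35 for mitotic and from -0.08 to 0.03 for replication members. Members with an unadjusted p under 0.05 numbered 3 as reported, 5 with the replicate block, 1 among genes above the median level (27 members tested), and 2 to 5 with single arrays left out. The share of all genes at that p was 9.4% as reported, 8.37% with the block and 10.2% above the median level. It was 6.79% to 12.6% with single arrays left out. Genes called in the whole table numbered 1 as reported, 0 with the replicate block, 0 among genes above the median level, 0 with the pan-haematopoietic covariate, 2 with the Xist covariate, 11 without BA replicates 4 and 5, and 0 to 13 with single arrays left out (13 without BA replicate 4). The replicate numbers were not treated as pairs in the reported fit. Same-numbered deviations correlated between -0.0973 and 0.112, and 2 of 5 control arrays correlated best with their own number. These correlations do not settle whether same-numbered mice shared a pairing or a batch. Mki67 changed sign with quantile normalization (-0.01), with the pan-haematopoietic covariate (-0.13), without control replicate 3 (-0.09), without BA replicate 4 or 5 (-0.04 each) and without both (-0.31), and ranged from -0.09 to 0.27 with single arrays left out. Pcna changed sign with quantile normalization (-0.02) and Top2a with the mean of its probe sets (-0.21). The cause was not tested. Over the alternatives the adjusted p of Cenpf lay between 0.311 and 0.711 and that of Kif20a, which was below the median level and so not tested in that alternative, between 0.319 and 0.711.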
